A study of Mus musculus with 10 samples.

Results

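The Id genes Id1, Id2, Id3 and Id4 encode helix-loop-helix proteins that bind E proteins but lack a basic region for contact with DNA, so that they hold back transcription factors of the bHLH family. They are textbook direct targets of bone morphogenetic protein (BMP) signaling, in which ligand-bound receptors phosphorylate SMAD1, SMAD5 and SMAD9, and these enter the nucleus with SMAD4 and bind DNA near the target gene. In neural stem cells, BMP signals and Id proteins are known to hold cells in quiescence and to oppose neuronal differentiation. Chromatin at the 4 genes was therefore described in neural stem and progenitor cells (NSPCs) with and without BMP4. The members were taken by name from the GENCODE M21 annotation, 4 of 21911 protein-coding gene symbols. A peak was assigned to a member when it lay in the gene body or within 50 kb of it and its nearest protein-coding transcription start site (TSS) was that of the member. Peaks of all libraries that overlapped or abutted were merged into sites. This gave 33 of 108367 ATAC-seq sites, of which 23 of 74759 had a peak in at least 2 libraries.

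NSPCs came from C57BL/6 mice at postnatal day 5. Activated cells were grown with FGF2 and EGF, each at 20 ng/ml. Quiescent cells had 25 ng/ml of BMP4 and 20 ng/ml of FGF2 and no EGF, for 4 days by the sample labels, while the study's methods give a shorter time before ATAC-seq. Reactivated cells spent 4 days with BMP4 and were then returned to the medium of activated cells for 9 to 12 days, so that they too had been exposed to BMP4. The cultures are mixtures of stem and progenitor cells, so a signal present in a share of the cells and a weaker signal in all of them cannot be told apart. ATAC-seq, which reads open chromatin through insertions of the Tn5 transposase, had 2 libraries per state. H3K4me3, a histone mark of active promoters, was mapped by ChIP-seq in 1 library of quiescent and 1 of activated cells, so its values have no replicate. The values are the authors' fold enrichment of a peak over the background of its own library, on a linear scale. Messenger RNA was not measured in the files used here.

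The libraries differed in the number and strength of all their peaks. There were 54713 and 60355 peaks in the quiescent, 58327 and 47037 in the activated and 106270 and 106830 in the reactivated libraries. Over the sites with a peak in all 6 libraries, the median log2 fold enrichment was higher in reactivated than in activated libraries by 0.65 and than in quiescent libraries by 0.87, and lower in quiescent than in activated libraries by 0.22. Differences below are therefore given relative to these medians where a test is named, and the values as listed stand beside them. The genome-wide background was 12.1 reads in quiescent replicate 2 and between 6.01 and 6.61 in the other libraries. Among the cell type markers, 6 or 7 of 7 genes of neural stem and progenitor cells had a promoter peak in each library. Of 5 neuronal genes 3 or 4 had one, of 4 astrocyte genes 1 to 3, of 4 oligodendrocyte and 4 endothelial genes 0 or 1 each, and of 5 microglial genes 1.

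The DNA around the Id genes is shown first, because BMP-activated SMADs are known to bind it at particular letters. Windows of 300 bases centred on the strongest summit of each of the 23 sites were read from GRCm38.p6 (RefSeq), the build that mm10 names, and searched on both strands. The letters were GGCGCC, a GC-rich element bound by SMAD1 and SMAD5, CAGAC, the SMAD binding element in reverse complement GTCTG, their composite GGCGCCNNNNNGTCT with N for any base, and TGANTCA, the AP-1 motif. A composite counts under GGCGCC too and can overlap a match to CAGAC. The composite was found at 4 of 23 Id sites and at 40 of 74759 sites in all, which is 0.0535%. All 4 lay more than 1 kb from a TSS, where 0.0329% of all sites held it. They lay at Id1 (3.3 kb downstream of the TSS), at Id2 (1.8 kb upstream) and at Id3 (3.0 kb upstream and 4.4 kb downstream). The centre of the composite was 80, 60, 48 and 62 bp from the summit, in the same order. No site of Id4 held it, none did among 71 sites of BMP receptors and SMADs or 65 sites of other BMP-induced genes, and 1 of 86 sites did among those of E proteins and bHLH factors. The composite is known from earlier work on Id gene enhancers, so its presence here is a look-up in open sites and no independent finding, and a match is not a measured SMAD binding site.

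The 4 windows with the composite follow, then the site 1.1 kb upstream of Id1, which held GGCGCC once and CAGAC 4 times. The strongest distal site of Id4, the promoter of Id4, whose quiescent value was called higher than the activated one, and the strongest Id3 site without a peak in quiescent cells close the set. Each is 5′ to 3′ on the plus strand, with matches to the letters above in capitals.
Id1, 3.3 kb downstream, chr2:152739409-152739708: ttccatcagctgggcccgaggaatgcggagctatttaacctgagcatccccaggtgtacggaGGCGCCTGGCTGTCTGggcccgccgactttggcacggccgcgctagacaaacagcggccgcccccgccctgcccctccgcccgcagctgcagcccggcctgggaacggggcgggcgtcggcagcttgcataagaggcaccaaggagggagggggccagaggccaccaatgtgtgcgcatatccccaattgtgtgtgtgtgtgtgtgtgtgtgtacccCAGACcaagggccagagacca
Id2, 1.8 kb upstream, chr12:25098772-25099071: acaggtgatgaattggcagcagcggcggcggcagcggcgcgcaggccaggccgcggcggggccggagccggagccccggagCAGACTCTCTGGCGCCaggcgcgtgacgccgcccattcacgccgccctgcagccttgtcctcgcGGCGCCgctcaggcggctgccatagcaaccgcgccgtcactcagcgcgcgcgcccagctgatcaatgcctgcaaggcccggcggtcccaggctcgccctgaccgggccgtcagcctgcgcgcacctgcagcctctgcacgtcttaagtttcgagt
Id3, 3.0 kb upstream, chr4:136140350-136140649: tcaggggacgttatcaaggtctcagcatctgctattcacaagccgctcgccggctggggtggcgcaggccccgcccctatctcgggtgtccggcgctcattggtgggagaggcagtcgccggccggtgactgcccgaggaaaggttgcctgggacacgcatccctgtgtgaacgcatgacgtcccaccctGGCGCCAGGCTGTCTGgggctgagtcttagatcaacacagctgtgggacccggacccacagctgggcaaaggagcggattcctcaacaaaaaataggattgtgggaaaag
Id3, 4.4 kb downstream, chr4:136147777-136148076: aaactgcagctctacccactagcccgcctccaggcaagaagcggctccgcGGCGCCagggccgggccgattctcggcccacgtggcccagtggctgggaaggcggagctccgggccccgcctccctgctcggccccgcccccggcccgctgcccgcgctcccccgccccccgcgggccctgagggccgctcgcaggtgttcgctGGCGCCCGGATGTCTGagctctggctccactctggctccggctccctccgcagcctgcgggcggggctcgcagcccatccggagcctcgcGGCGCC
Id1, 1.1 kb upstream, chr2:152735045-152735344: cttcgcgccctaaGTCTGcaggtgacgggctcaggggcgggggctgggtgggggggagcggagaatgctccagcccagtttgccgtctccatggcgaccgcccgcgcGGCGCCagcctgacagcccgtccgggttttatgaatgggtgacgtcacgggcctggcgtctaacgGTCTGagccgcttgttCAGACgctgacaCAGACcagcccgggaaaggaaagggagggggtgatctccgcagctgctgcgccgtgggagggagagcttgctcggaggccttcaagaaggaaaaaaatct
Id4, 33.3 kb upstream, chr13:48227793-48228092: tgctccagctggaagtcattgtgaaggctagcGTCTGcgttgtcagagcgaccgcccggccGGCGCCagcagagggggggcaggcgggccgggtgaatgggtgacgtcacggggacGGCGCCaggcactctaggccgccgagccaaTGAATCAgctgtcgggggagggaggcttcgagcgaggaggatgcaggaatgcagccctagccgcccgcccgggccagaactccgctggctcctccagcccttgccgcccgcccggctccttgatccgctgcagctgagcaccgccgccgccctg
Id4, promoter, chr13:48260765-48261064: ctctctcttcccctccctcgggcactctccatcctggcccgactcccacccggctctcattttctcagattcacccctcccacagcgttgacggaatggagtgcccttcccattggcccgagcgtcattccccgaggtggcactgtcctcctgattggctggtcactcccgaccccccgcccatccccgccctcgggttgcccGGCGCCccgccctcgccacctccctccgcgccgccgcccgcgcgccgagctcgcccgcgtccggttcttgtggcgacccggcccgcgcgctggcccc
Id3, 38.5 kb upstream, chr4:136104867-136105166: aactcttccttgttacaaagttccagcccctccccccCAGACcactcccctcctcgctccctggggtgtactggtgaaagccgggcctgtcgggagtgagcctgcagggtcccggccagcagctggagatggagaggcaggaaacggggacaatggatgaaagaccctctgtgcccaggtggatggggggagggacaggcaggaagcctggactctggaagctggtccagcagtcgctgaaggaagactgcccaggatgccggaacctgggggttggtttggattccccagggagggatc

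GGCGCC was found at 10 of 23 Id sites, against 9.52% of all sites, 25.5% of sites at promoters and 4.81% of the others. CAGAC was found at 13 of 23, against 55.7% of all sites. The AP-1 motif was found at 4 of 23 Id sites, against 9.89% of all sites, and these were at Id2 (13.3 kb upstream), Id3 (26.3 and 32.8 kb upstream) and Id4 (33.3 kb upstream). The windows with the composite were rich in G and C, with 66.0%, 73.0%, 61.7% and 77.7% in the order above. The RefSeq promoter table held Id2, Id3 and Id4. In the 250 bases before their starts, GGCGCC occurred once each at Id2 and Id4 and not at Id3, CAGAC occurred at Id3, and neither the composite nor the AP-1 motif occurred. The windows of Id2 and Id3 overlap a UTR in GENCODE, and that of Id3 lies downstream of the Id3 TSS used here. Over 32851 RefSeq promoters of 250 bases, 9.59% held GGCGCC, 42.2% CAGAC, 0.0700% the composite and 6.75% the AP-1 motif.

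The first comparison asked in which states the Id sites were open at all. Every Id gene had open chromatin at its promoter in all 6 libraries, as had 52.2% of the 21829 protein-coding genes whose starts were counted. Of the 23 sites, 10 had a peak in both libraries of all 3 states, against 30.9% of all 74759 sites. A further 4 had a peak in both activated and both reactivated libraries and in no quiescent library, against 5.64% of all sites. Both reactivated libraries and no other had a peak at 4, against 21.4% of all sites, and 5 sites were mixed. The first of these counts of 4 became 1 at a −log10 q of at least 10, 1 with lists of equal length, 2 within 25 kb upstream and 10 kb downstream, and 1 by the TSS of any transcript, and the second became 7, 1, 1 and 1. Merging across 150 bp gave 3 and 4. No Id site had a peak in both quiescent libraries and in neither activated one, a pattern of 9.08% of all sites. These classes rest on peak calls and were not tested. Among the other genes of the pathway, this last pattern was found at 9 of 71 sites of BMP receptors and SMADs, at 11 of 65 sites of BMP-induced inhibitors and targets, and at 2 of 86 sites of E proteins and bHLH factors.

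**Figure D1:**
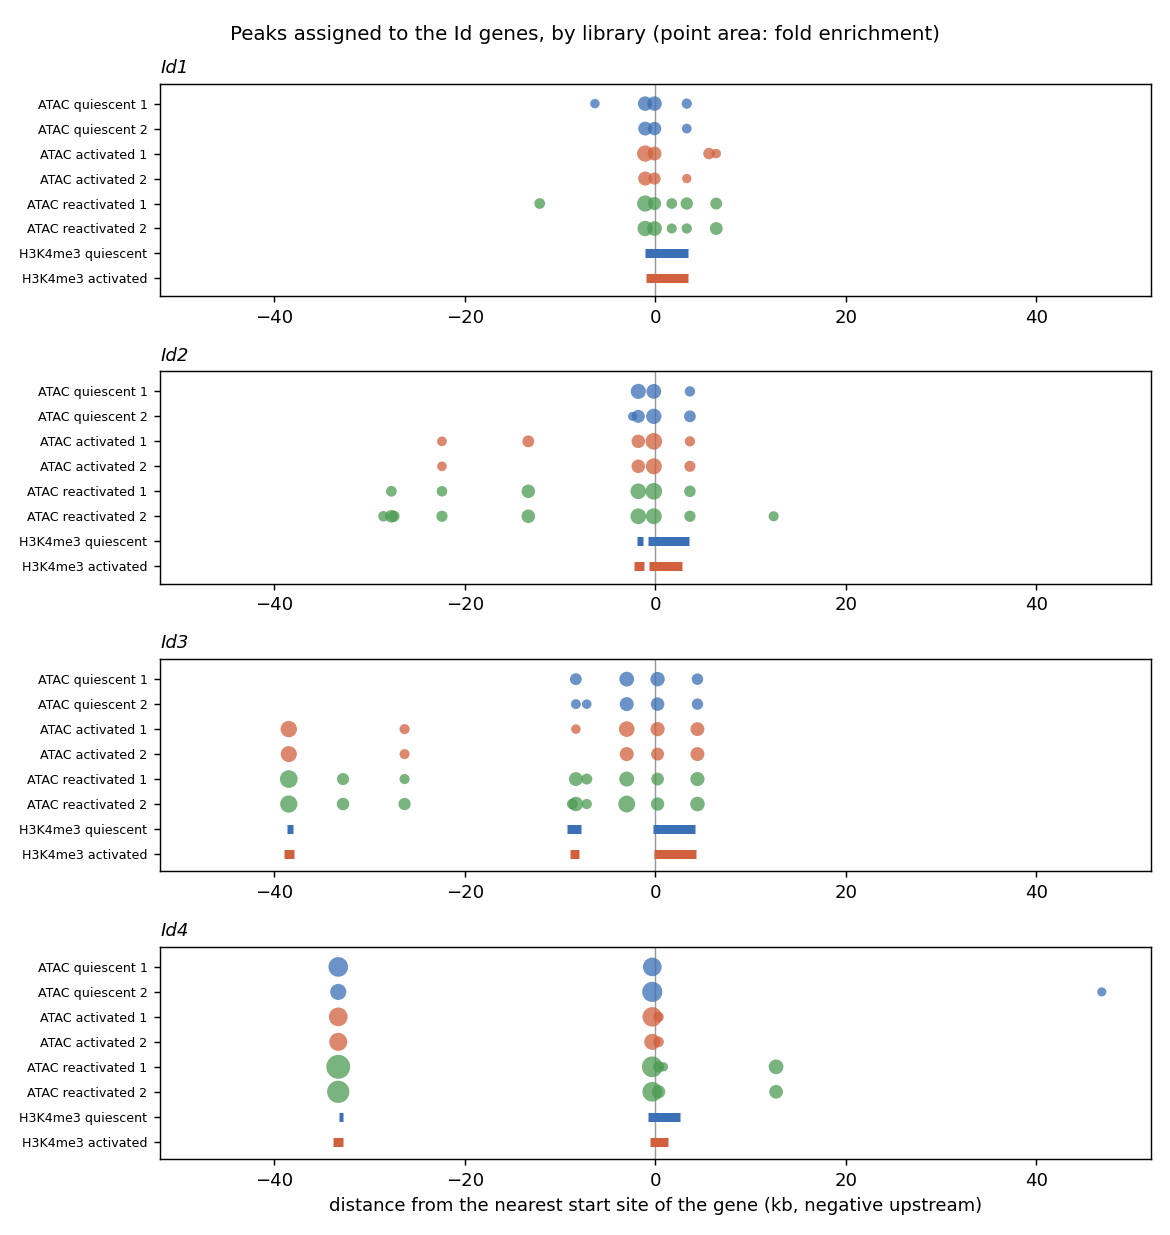
Peaks assigned to each Id gene, with the distance of the site from its nearest TSS in kb on the horizontal axis and 1 row per library. Point area grows with the fold enrichment of an ATAC-seq peak, and bars show the extent of H3K4me3 regions. Each gene has a promoter site with a point in all 6 ATAC-seq rows, and the sites more than 10 kb upstream of Id2 and Id3 have no point in the quiescent rows.

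In a given library the 4 genes together had 14 and 19 peaks in quiescent cells, 20 and 15 in activated cells and 31 and 32 in reactivated cells. These peaks covered 0.0354% ± 0.00178 (SD, n = 2) of the bases in quiescent peak lists and 0.0379% ± 0.000986 (SD, n = 2) in activated lists. The difference of -0.00249 percentage points was not called by an exact permutation test (two-sided p = 0.333, the smallest p that 2 against 2 libraries allow), and it turned to 0.00230 with lists of equal length. The share was 0.0316% and 0.0311% in the reactivated lists, below that of every other library, while those lists covered 31.0 and 30.6 Mb in all, against 13.5 to 16.9 Mb in the others. Id3 had 8 sites in at least 2 libraries, Id2 6, Id1 5 and Id4 4. Over the 16472 genes with any site the median was 2 and the upper quartile 4.

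Id1 (ENSMUSG00000042745.9) lies at chr2:152736251-152737410 on the plus strand. Its promoter site (chr2:152736032-152736520, 0.1 kb upstream of the TSS) had fold enrichments of 6.71 and 5.73 in quiescent cells, 6.11 and 4.62 in activated cells and 5.40 and 6.96 in reactivated cells. The 3 states overlapped there. The site 1.1 kb upstream, intergenic at chr2:152734966-152735373, had 6.71 and 6.14 in quiescent cells, 8.59 and 6.30 in activated cells and 8.47 and 7.64 in reactivated cells, where the quiescent and activated values overlapped. The site with the composite, 3.3 kb downstream of the TSS and past the end of the gene, was weaker. It had 3.15 and 2.78 in quiescent cells, 2.51 in activated replicate 2 with no peak in replicate 1, and 4.78 and 3.15 in reactivated cells. A site 1.7 kb downstream had a peak in the reactivated libraries alone, with 3.50 and 3.03. The site 6.4 kb downstream had 2.62 in activated replicate 1 and 4.35 and 5.17 in the reactivated libraries, and no peak elsewhere. The other 3 Id1 sites had a peak in 1 library each, from 2.63 to 4.12.

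Id2 (ENSMUSG00000020644.9) lies at chr12:25093799-25097140 on the minus strand. Its promoter site (chr12:25095948-25096508) lies inside that span, with its summit 0.2 kb upstream of another annotated start and over an annotated UTR of Id2. Fold enrichment there was 7.02 and 7.57 in quiescent cells, 9.01 and 8.32 in activated cells and 9.03 and 8.19 in reactivated cells, so the quiescent values lay below the rest as listed. The site 1.8 kb upstream (chr12:25098567-25099101, intergenic), which holds the composite, had 7.43 and 5.33 in quiescent cells, 5.75 and 5.83 in activated cells and 7.88 and 7.95 in reactivated cells. The quiescent and activated values overlapped, and the reactivated ones were higher. The site 3.6 kb downstream of the nearest TSS, past the 3′ end of the gene, was weak in all states, with 3.23 and 4.32, 3.18 and 3.79, and 4.10 and 3.91, in the same order. At 22.4 kb upstream (chr12:25119267-25119635), no quiescent library had a peak, the activated libraries had 2.79 and 2.73 and the reactivated ones 3.34 and 3.86. The site 13.3 kb upstream had 4.38 in activated replicate 1 and 5.74 and 5.85 in the reactivated libraries, and none elsewhere. Reactivated cells alone had a peak 27.7 kb upstream, with 3.47 and 5.05. The 4 remaining Id2 sites had a peak in 1 library each, from 2.40 to 3.86.

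Id3 (ENSMUSG00000007872.3) lies at chr4:136143497-136145755 on the plus strand and had the most sites with a peak in at least 2 libraries. Its promoter site (chr4:136143591-136143982) overlaps an annotated UTR. Fold enrichment there was 6.68 and 5.81 in quiescent cells, 6.41 and 5.32 in activated cells and 5.11 and 5.62 in reactivated cells. Activated values overlapped those of the other states, and both quiescent values lay above both reactivated ones as listed. Among the 11398 genes with a promoter peak in all 6 libraries it stood at percentiles 37.0 and 29.6 in quiescent cells, 20.0 and 18.98 in activated cells and 1.92 and 2.32 in reactivated cells. The site 3.0 kb upstream (chr4:136140335-136140657, intergenic, with the composite) had 7.02 and 6.22 in quiescent cells, 7.94 and 6.29 in activated cells and 7.15 and 9.22 in reactivated cells. The site 4.4 kb downstream of the TSS (chr4:136147655-136148173, intergenic past the 3′ end, also with the composite) had 4.10 and 3.99 in quiescent cells, 6.13 and 6.20 in activated cells and 6.35 and 6.76 in reactivated cells. Here both quiescent values lay below all others.

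The most distinct state difference by peak calls was at the Id3 site 38.5 kb upstream (chr4:136104485-136105327, intergenic). The activated libraries had peaks with a fold enrichment of 8.72 and 8.31, and the reactivated libraries 10.2 and 9.70, at percentiles between 83.7 and 86.1 of their lists. Neither quiescent library had a peak. The assignment to Id3 depends on the rule, since the start of the pseudogene Gm13009 lies nearer (30044 bp) and the site falls outside a window of 25 kb. At the genome-wide background, the lowest fold enrichment called was 2.37 and 1.99 in the quiescent lists. The activated peaks rest on pileups of 67 reads (95% Poisson interval 51.9 to 85.1) and 65 reads (50.2 to 82.8), which cover counting error only. The letters of this window hold 1 CAGAC and no GGCGCC. The other Id3 sites without a quiescent peak were weaker. At 26.3 kb upstream, activated libraries had 3.05 and 2.99 and reactivated ones 3.07 and 4.65, and at 32.8 kb upstream only the reactivated libraries had a peak, with 4.54 and 4.92. Close to the gene, the sites 8.3 and 7.2 kb upstream were open in 5 and 3 libraries, with fold enrichments from 2.65 to 6.72, and both reactivated libraries were among them. The site 8.7 kb upstream had a peak in reactivated replicate 2 alone, with 3.56.

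Id4 (ENSMUSG00000021379.2) lies at chr13:48261228-48266026 on the plus strand and had the strongest peaks of the family. Its promoter site (chr13:48260663-48261240, 0.3 kb upstream of the TSS and in introns of the noncoding genes A330033J07Rik and Gm49291) had 11.4 and 13.4 in quiescent cells, 12.6 and 8.38 in activated cells and 14.3 and 12.8 in reactivated cells. As listed, the quiescent and activated values overlapped. The site 33.3 kb upstream (chr13:48227684-48228450, in introns of the noncoding genes A330033J07Rik and Gm36346) had 12.7 and 8.41 in quiescent cells, 11.5 and 10.7 in activated cells and 19.01 and 16.5 in reactivated cells. Its mean percentile over the 6 lists was 95.4. A small peak in the coding sequence, 0.3 kb downstream of the TSS (chr13:48261367-48261965), was called in the activated libraries with 3.28 and 3.43 and in the reactivated libraries with 3.83 and 5.65, and in no quiescent library. Merging across 150 bp joined this site to the promoter site, which had a peak in all 6 libraries. Id sites then numbered 22, and 3 had activated and reactivated peaks alone. Also in the gene, a peak 0.9 kb downstream was found in reactivated replicate 1 alone, with 2.46. The site 12.7 kb downstream was open in the reactivated libraries alone, with 6.94 and 5.98, and its summit lay 30 bp from a start of the long noncoding RNA A330048O09Rik. A peak 46.9 kb downstream was listed in quiescent replicate 2 alone, with 2.37.

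**Figure D2:**
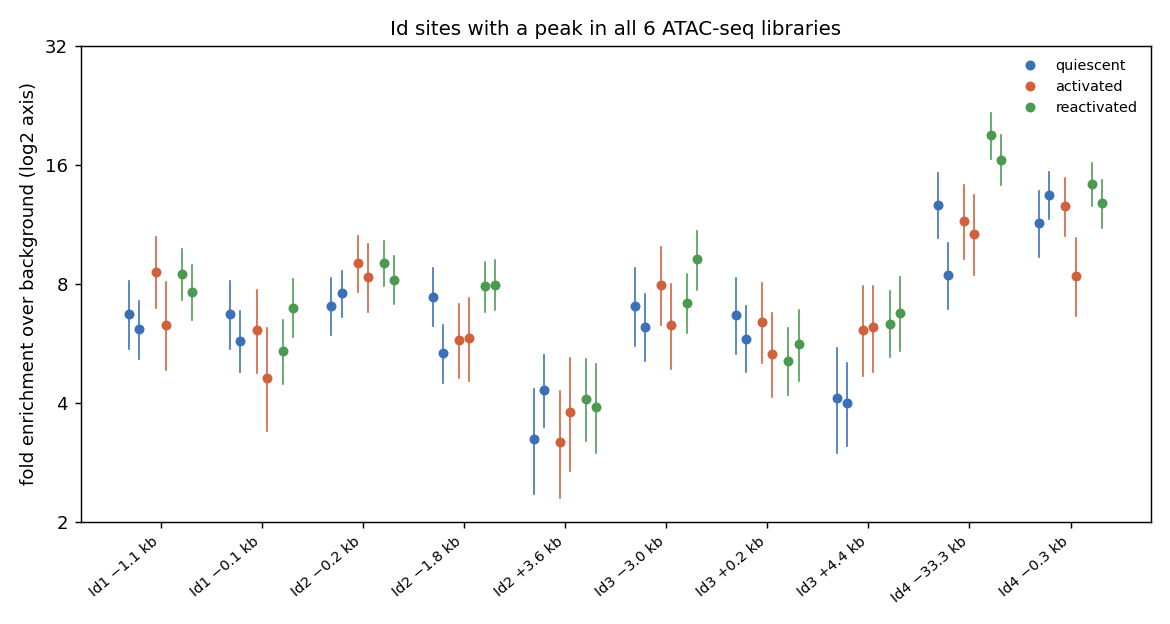
Fold enrichment on a log2 axis at the 10 Id sites with a peak in all 6 ATAC-seq libraries, 1 point per library, with bars for the 95% Poisson interval of the pileup. At Id4 0.3 kb upstream the quiescent points (11.4 and 13.4) and the activated points (12.6 and 8.38) overlap, and the 2 quiescent points of Id3 4.4 kb downstream stand at 4.10 and 3.99, below the other 4.

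The second comparison asked whether the level of opening differed between states at sites open in all of them. It used the 10 Id sites among 23116 with a peak in all 6 libraries, so that 13 Id sites, the state-dependent ones included, could not enter. The log2 fold enrichment of each library was centred on its median and tested with limma, with Benjamini-Hochberg adjustment over the 23116 sites. The 3 contrasts share libraries and are not independent. Nothing in the labels says that replicates came from separate animals, and the study's methods call the ATAC-seq samples biologically independent.

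Between quiescent and activated cells, 1 of 10 Id sites was called. The promoter of Id4 was higher in quiescent cells by 0.49 (SE 0.16, limma adjusted p = 0.0422), while 7.05% of all sites were called higher and 6.35% lower. The call depended on centring, on single libraries, on the summary of subpeaks, on the background, on quantile normalization and on the treatment of missing values. Under quantile normalization the difference was 0.32 (limma adjusted p = 0.219). With missing values at the list's minimum the difference turned to -0.0552 (limma adjusted p = 0.927). No value was filled at this promoter, which has a peak in all 6 libraries, but the medians were then those of 74759 sites. Over the genome-wide background the difference was 0.37 (limma adjusted p = 0.158). The promoter of Id1 (0.85) and the site 1.8 kb upstream of Id2 (0.68) were called higher in place of the Id4 promoter. The difference was 0.27 as listed, with an adjusted p of 0.43 in limma, and without activated replicate 2 or quiescent replicate 2 it was 0.29 and 0.33, with limma adjusted p of 0.345 and 0.321. Leaving out reactivated replicate 1 or 2, which enter the estimate of the spread, ended the call, while the difference stayed at 0.49 in each fit. With the mean over subpeaks the difference was 0.46 (limma adjusted p = 0.241). Within 1 lane, between quiescent replicate 2 and activated replicate 1, the libraries whose peak names carry the same lane label, it was 0.50 relative to the medians, and no other pair of libraries shares such a label. That value sets 1 library against 1 and has no spread. The same pair differed by 0.85 at Id2 3.6 kb downstream, which was not called. The other 9 sites differed by -0.39 to 0.44, and none passed the threshold. The lowest of these was Id3 4.4 kb downstream (-0.39, SE 0.23, limma adjusted p = 0.282), and the difference as listed there was -0.61. The highest was the promoter of Id1 (0.44, SE 0.22, limma adjusted p = 0.20). Over the 10 sites the median difference was 0.22, against 0.07 over all sites tested. The other BMP-induced genes were Smad6, Smad7, Bambi, Nog, Grem1, Atoh8, Msx1, Msx2 and Hey1. Of their 19 sites with a peak in all 6 libraries, 8 were called higher in quiescent cells and 1 lower, with a median of 0.15. Among BMP receptors and SMADs, 3 of 20 were called higher and 1 lower, and among E proteins and bHLH factors 1 of 33 and 2. The counts for these lists are from the main fit alone, and their dependence on the settings was not tested.

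**Figure D3:**
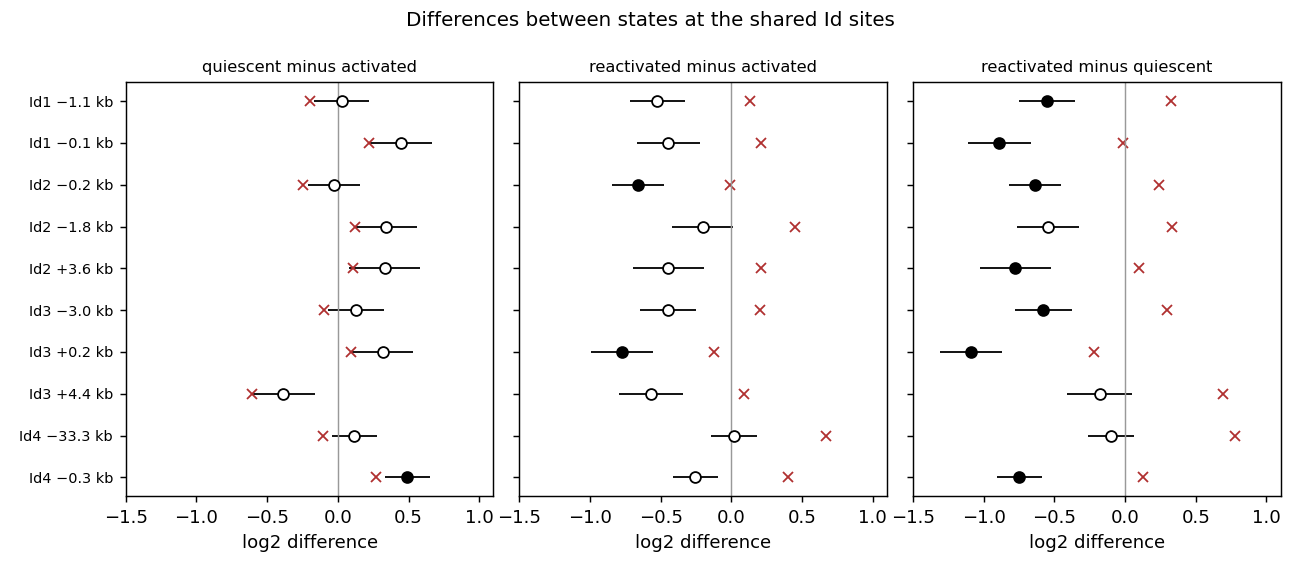
Log2 differences in fold enrichment between states at the 10 shared Id sites. Circles give the difference after each library was centred on its median, with bars for the standard error and filled where the limma adjusted p is under 0.05, and crosses give the difference as listed. In the panels of reactivated cells, the crosses lie to the right of the circles by 0.65 and 0.87, the shift of the medians.

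Between reactivated and activated cells, 2 Id promoters were called lower relative to the median of all sites. They were Id2 (-0.66, SE 0.18, limma adjusted p = 0.0143) and Id3 (-0.78, SE 0.22, limma adjusted p = 0.0152). As listed, the differences were -0.01 and -0.12. Without centring limma called neither of them, and it called 1 Id site higher. In that fit, 12165 of all 23116 sites were called higher and 109 lower. With centring, 14.5% of all sites were called lower and 7.66% higher. Leaving out either reactivated library ended both calls, and leaving out activated replicate 2 ended that of Id2. Without reactivated replicate 1 or 2 the differences were -0.76 and -0.57 at Id2, and -0.74 and -0.82 at Id3. Without activated replicate 2 the difference at Id2 was -0.63. Over the genome-wide background the difference at Id2 was -0.31 (limma adjusted p = 0.206). With the mean over subpeaks neither promoter was called, at differences of -0.50 and -0.62 (limma adjusted p of 0.125 and 0.072). Nor was either called with missing values at the list's minimum, at -1.40 and -1.51 (SE 0.49 and 0.51, limma adjusted p of 0.123 and 0.113). No value was filled at these promoters, which have a peak in all 6 libraries. The larger differences come from centring on the medians of 74759 sites. The difference at Id4 33.3 kb upstream was 0.02 relative to the median and 0.67 as listed, so this site moved with the bulk of sites.

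Between reactivated and quiescent cells, 7 of 10 Id sites were called lower relative to the median, where 25.7% of all sites were called lower and 11.5% higher. These were both Id1 sites, the promoter of Id2 and its site 3.6 kb downstream, the promoter of Id3 and its site 3.0 kb upstream, and the promoter of Id4. The differences ranged from -1.09 at the promoter of Id3 (SE 0.22, limma adjusted p = 0.000603) to -0.55 at Id1 1.1 kb upstream (SE 0.20, limma adjusted p = 0.0314). As listed, 5 of the 7 differences were positive, from 0.10 to 0.33, and those at the promoters of Id1 and Id3 were -0.02 and -0.22. Without centring limma called 0 of the 10 sites lower and 2 higher, where 126 of all 23116 sites were called lower and 15756 higher. With missing values at the minimum of each list, which brings in all 23 Id sites, it called 0 lower and 1 higher. Of all 74759 sites in that fit, 1709 were called lower and 1207 higher. The 7 calls of the main fit are therefore relative to the stronger peaks of the reactivated lists in general. Id2 1.8 kb upstream narrowly missed the threshold (-0.54, SE 0.22, limma adjusted p = 0.0509). Id3 4.4 kb downstream (-0.18) and Id4 33.3 kb upstream (-0.10) were not called, and as listed they were higher in reactivated cells by 0.69 and 0.78. Without quiescent replicate 2, reactivated replicate 1 or reactivated replicate 2, limma called 4, 3 and 4 of the 10 sites. Over the genome-wide background the Id4 promoter (limma adjusted p = 0.0604) and Id3 3.0 kb upstream (0.121) were not called, and Id2 1.8 kb upstream was (0.0208). With the mean over subpeaks, the promoters of Id1 and Id3 were the 2 of these 7 that were called, beside Id2 1.8 kb upstream. The median over the 10 sites was -0.61, against -0.15 over all sites.

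The third comparison concerned H3K4me3 in quiescent and activated cells, with 1 library each. All 4 Id promoters lay in a broad H3K4me3 region in both states, and at all 4 the fold enrichment was higher in quiescent cells. It was 57.9 against 35.6 at Id1, 45.3 against 39.4 at Id2, 70.1 against 48.3 at Id3 and 44.0 against 23.8 at Id4. Over the 12510 genes with a region over a TSS in both states, the median was 38.3 in quiescent and 35.8 in activated cells, and the median of the log2 differences per gene was 0.11. Relative to that median difference, the log2 difference was 0.78 at Id4, 0.59 at Id1, 0.43 at Id3 and 0.09 at Id2. A ratio of at least 1.5 in quiescent cells was reached at Id4 (1.85) and Id1 (1.63), and by 5.2% of all genes. Of 4 neuronal markers with H3K4me3 in both states, 2 reached it, Snap25 (1.82) and Syt1 (1.68). None of 7 markers of neural stem and progenitor cells did. Id4 lay above 99.4%, Id1 above 97.6%, Id3 above 93.3% and Id2 above 63.9% of genes in this ratio. In quiescent cells the promoter of Id3 stood above 99.3% of genes in the level of fold enrichment. No test was possible with 1 library per state.

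**Figure D4:**
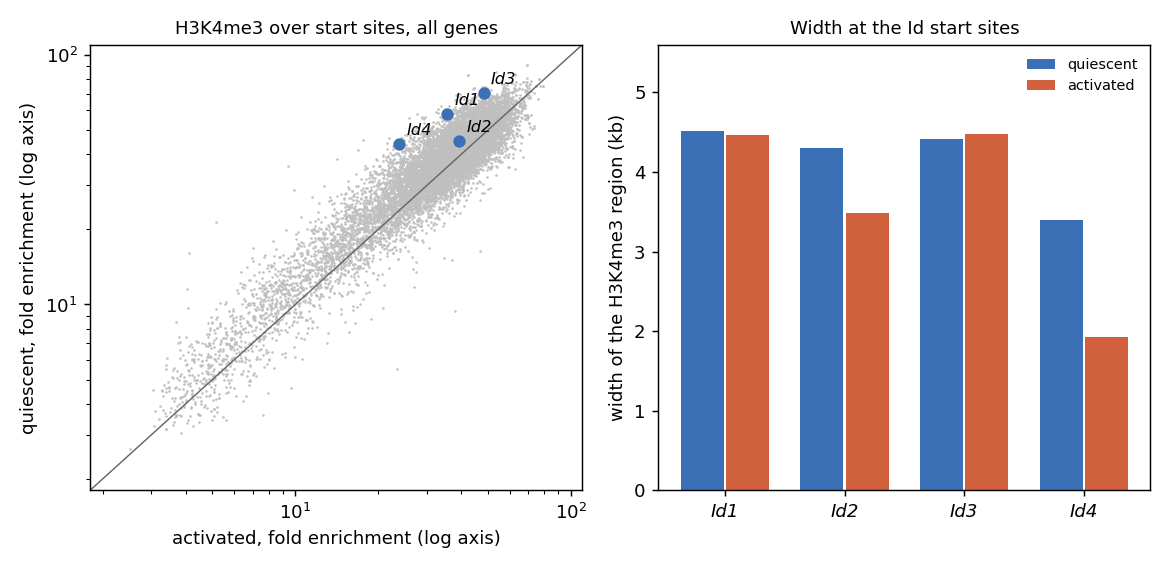
Left, H3K4me3 fold enrichment over the TSS in activated and in quiescent cells on log axes, for 12510 genes in grey and the Id genes in blue, with a line of equal values. Right, the width of the H3K4me3 region over each Id TSS in kb. All 4 Id genes lie on the side of the line where the quiescent value is higher, and the region of Id4 is 3390 bp wide in quiescent and 1932 bp in activated cells.

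The H3K4me3 regions differed in width at Id4 and Id2 and hardly at the others. The region over the Id4 TSS was 3390 bp in quiescent and 1932 bp in activated cells, a ratio of 1.75 that was larger than that of 98.1% of genes. It was 4306 and 3484 bp at Id2, 4510 and 4466 bp at Id1, and 4410 and 4479 bp at Id3. The Id1 region covered the site 3.3 kb downstream and overlapped part of the site 1.1 kb upstream, without its summit, in both states, and the Id3 region reached into the site 4.4 kb downstream. No H3K4me3 region overlapped the site 3.0 kb upstream of Id3. Away from the promoters there were 4 smaller regions in each state, at the same places. At Id2 1.8 kb upstream, the site with the composite, the fold enrichment of H3K4me3 was 3.49 over 588 bp in quiescent and 9.23 over 1066 bp in activated cells, the opposite order to the promoters. At Id4 33.3 kb upstream it was 4.55 and 5.50, and near 8.5 kb upstream of Id3 it was 4.87 and 5.59. At Id3 38.5 kb upstream it was 5.16 over 613 bp in quiescent cells, where ATAC-seq had no peak, and 4.19 over 996 bp in activated cells.

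The same look-up in the pathway gave the following. Among BMP receptors and SMADs (Bmpr1a, Bmpr1b, Bmpr2, Acvr1, Acvr2a, Acvr2b, Smad1, Smad5, Smad9 and Smad4), 10 of 10 had a promoter peak in all 6 ATAC-seq libraries, against 52.2% of all genes, and 0 of 10 had H3K4me3 at least 1.5 times as high in quiescent cells, a ratio that 5.2% of all genes reached. Among BMP-induced inhibitors and targets, 7 of 9 had the promoter peak throughout, and 5 of 8 with H3K4me3 in both states passed that ratio. These were Smad6, an inhibitory SMAD (2.71), Atoh8, a bHLH factor (2.59), Nog, the secreted BMP inhibitor noggin (2.13), Bambi, a decoy receptor (1.66), and Grem1, a secreted inhibitor (1.66). At the promoter of Atoh8 both quiescent libraries had an ATAC-seq peak (2.98 and 3.08), neither activated library did, and the reactivated libraries had 4.95 and 4.65. Among the E proteins and bHLH factors on which Id proteins act, or that act in the same cells, 8 of 9 had the promoter peak throughout and 0 of 9 passed the ratio. For Neurog2, a proneural factor, no quiescent library had a promoter peak, while the activated libraries had 5.85 and 5.26 and the reactivated libraries 10.2 and 6.78.

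The genes whose promoters were most like each Id promoter were found by the smallest Euclidean distance of centred log2 fold enrichment over the 6 ATAC-seq libraries, among 11398 genes. The strongest peak that reached within 1 kb of a TSS stood for a gene, which for Id1 was the site 1.1 kb upstream. The nearest were Cdc37l1, Antxr2 and Fbxl12 for Id1 (distances from 0.167 to 0.220), Rock2, Rabep2 and Ndufa13 for Id2 (0.181 to 0.208), Brd2, Arid2 and Phf21b for Id3 (0.198 to 0.256) and Tob1, Ppp3ca and Ankrd13c for Id4 (0.118 to 0.206). The median distance to all genes was 1.43 for Id1, 1.35 for Id2 and 2.05 for Id3, and it was below all of these for Id4. No Id gene was among the nearest 3 of another.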

How the data were processed

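Per the labels and the submitters' processing notes, ATAC-seq and H3K4me3 ChIP-seq reads were trimmed with Trim Galore 0.4.0, aligned to mm10 with Bowtie2 2.2.5 and handled with Picard 1.88 and SAMtools 1.3.1. By the study's methods, the authors called ATAC-seq peaks per library with MACS at an FDR of 0.05, and broad H3K4me3 peaks with input as control, at q thresholds of 0.05 and, for joined regions, 0.01. The deposited fold enrichment is a ratio of pileup to background within a library. The deposited −log10 p and −log10 q values grow with depth. The peak names of the reactivated libraries hold the word downsample, with no further account in the sources used here. The deposited summit offsets gave each peak's position.

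From these lists, peaks on chromosomes 1 to 19, X and Y were merged and assigned with GENCODE M21. Pileups were recovered from fold enrichment and p, to within 0.02% of −log10 p, for at least 99.9991% of peaks. The lowest pileup called ranged from 16 to 25, so weaker sites were not detectable. The main test was limma 3.58.1 (R 4.3.3, trend) on centred log2 values, at an adjusted p of 0.05. The study's test on reads needs alignments, which were not used here. Classes, pileups and limma were tested on simulated data. Values in every library are given for promoter sites, sites present in some states alone, called sites and the 2 strongest distal sites per gene. Alternatives were another normalization or none, missing values at the list's minimum, a replicate block, mean subpeaks, a −log10 q of 10, equal lists, other distances and TSSs, merging across 150 bp and each library left out. The genome-wide background and the scaling of H3K4me3 ratios to the median gene were chosen after seeing the data. The members, lists and motifs were chosen with earlier results of these data known. The 2 input samples had no list to analyse here.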

Additional observations from a re-analysis of the deposited data

How the results depend on the processing

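For the count of Id sites called between quiescent and activated cells, 1 in the main analysis, limma called 0 without centring, under quantile normalization and with the mean over subpeaks, 2 over the genome-wide background (Id1 promoter and Id2 1.8 kb upstream, not the Id4 promoter, with an adjusted p of 0.158), and 1 in the other direction with missing values at the list's minimum. Between reactivated and activated cells, where 2 were lower, it called 1 over the genome-wide background, 0 with the mean over subpeaks or with missing values filled, and 1 higher without centring. Between reactivated and quiescent cells, where 7 were lower, it called 3 with the mean over subpeaks, 1 higher with missing values filled and 2 higher without centring. With each library left out, the 3 counts ranged from 0 to 1, 0 to 2 and 3 to 8. Leaving out an activated library brought 11 Id sites into the test in place of 10. Quantile normalization gave 2 and 6 for the last 2 comparisons, and the genome-wide background 6 for the last. Of all 23116 sites, 5940 were lower in reactivated than in quiescent cells in the main analysis, and 3251 under quantile normalization. This count was 2530 with the mean over subpeaks, 4502 over the genome-wide background and 126 without centring, where 15756 were higher. With missing values filled, 1709 of 74759 were lower and 1207 higher. Between reactivated and activated cells, 2219 of all sites were lower over the genome-wide background and 1014 with the mean over subpeaks. Without centring 109 were lower and 12165 higher, and with missing values filled 554 and 26 of 74759. Between quiescent and activated cells, 442 were higher and 2186 lower without centring, and 1071 and 1393 under quantile normalization. With the mean over subpeaks they were 510 and 645, and with missing values filled 830 and 5148 of 74759. With the replicate number as a replicate block, the counts of Id sites were 1, 2 and 7. The numbers do not pair the samples, since deviations of same-numbered libraries correlated by r = -0.00133, 0.0423 and -0.0173.

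Without centring, the reactivated minus quiescent differences turned positive at Id2 3.6 kb downstream (0.10), the Id2 promoter (0.24), the Id4 promoter (0.13), Id1 1.1 kb upstream (0.33) and Id3 3.0 kb upstream (0.30). With missing values filled, the quiescent minus activated difference at the Id4 promoter was -0.0552. The shift of medians is the construction of the first. The second also comes from the medians, since no value was filled at this promoter, which has a peak in all 6 libraries. The centring then used the medians of 74759 sites.

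The difference in the Id share of covered bases turned to 0.000517 at a −log10 q of at least 10, 0.00230 with equal lists, 0.00218 within 25 kb upstream and 10 kb downstream, and 0.00286 by the TSS of any transcript, and ranged from -0.00375 to -0.00123 with a library left out. Id sites numbered 15 with equal lists, 13 by the TSS of any transcript and 22 with merging across 150 bp. Sites with activated and reactivated peaks alone, 4 in the main analysis, numbered 1 at a −log10 q of 10, 1 with equal lists, 2 in the narrower window and 1 by any TSS. Sites of reactivated cells alone, also 4, numbered 7, 1, 1 and 1 under the same alternatives. With a library left out, these counts ranged from 19 to 23 for all sites, 4 to 6 and 0 to 6. Without either reactivated library, 19 sites had 2 or more peaks and none of them was of reactivated cells alone, since 2 libraries were still required. At a −log10 q of 10, Id H3K4me3 regions fell from 8 to 5 in each state, with all 4 promoters kept. Fold enrichment in single libraries is limited by pileups of 19 to 243 reads at Id sites.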

Other observations

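The composite of GGCGCC and GTCT was also looked up by site class, a choice made after the values at the Id genes were seen. It was found at 6 of 1790 sites with a peak in both quiescent libraries and no other, at 23 of 23116 sites with peaks in all 6 libraries, at 2 of 3733 sites with quiescent and reactivated peaks alone, at 4 of 15986 sites of reactivated cells alone and at 5 of 25688 mixed sites. It was found at 0 of 4219 sites with activated and reactivated peaks alone, 0 of 100 of activated cells alone and 0 of 127 with quiescent and activated peaks alone. The sites of quiescent cells alone included 1 assigned to Olig1, a bHLH factor of oligodendrocyte progenitors, 0.9 kb downstream of its TSS. Fos, an AP-1 subunit, had a site with the composite 12.2 kb downstream of its TSS and Fzd1, a Wnt receptor, had one at its promoter, both with peaks in all 6 libraries. These counts were not tested, and the windows were not matched for base composition.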
